A study of Homo sapiens with 6 samples.

Results

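The genes described here are 10 regulators of the G1 phase of the cell cycle, chosen by symbol: the cyclins CCND1, CCND3, CCNE1 and CCNE2, the kinases CDK2, CDK4 and CDK6, and the CIP/KIP inhibitors CDKN1A, CDKN1B and CDKN1C. All 10 were found among the 27754 genes of the count files. They were measured by RNA sequencing of T47D, a luminal, hormone receptor-positive human breast cancer cell line, grown as an adherent culture in RPMI medium with serum. Normoxia control libraries came from cells at 20% O2, and hypoxia libraries from cells kept for 48 h in an incubation chamber that the labels set at 0.5% O2, a value that the study's text gives differently. There were 3 libraries per condition, numbered 1 to 3 in each. The study describes the experiments of the figure that includes this RNA sequencing as independent and calls the hypoxia and normoxia samples paired. The labels do not name separate cultures, and if there were none, p-values measure only the spread between these libraries.

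In G1, D-type cyclins switch on CDK4 and CDK6 in response to mitogens, and E-type cyclins switch on CDK2 at the passage into S phase. Both kinds of kinase phosphorylate the retinoblastoma protein and release E2F factors, which drive the genes of DNA replication. CIP/KIP proteins (p21 from CDKN1A, p27 from CDKN1B and p57 from CDKN1C) bind cyclin-CDK complexes and block CDK2 in particular, while p21 and p27 also help cyclin D to assemble with its kinase. In luminal breast cancer, cyclin D1 is a target of the estrogen receptor, and CDK4 and CDK6 are the targets of drugs used with endocrine therapy.

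All 10 genes changed in hypoxia, and the direction followed their role in the cycle with a single exception. CCND1, CCND3, CCNE1, CCNE2, CDK2 and CDK4 fell, by 1.37-fold for CCND1 to 2.26-fold for CCND3. All 3 CIP/KIP inhibitors rose, by 1.21-fold for CDKN1B, 6.27-fold for CDKN1A and 7.37-fold for CDKN1C. The exception was the kinase CDK6, which rose 4.60-fold from a very low level. These calls come from edgeR's quasi-likelihood test at an adjusted p under 0.05, by which 59.5% of the 15657 tested genes were called, 30.4% as higher and 29.1% as lower. The 10 genes were chosen with earlier results of these data known, so setting their calls beside this share is no test of the set. Under all 15 alternative ways of processing, 6 of the 10 were called each time. The share of all tested genes called each time was not computed, so this count has no background beside it. In all 10 genes the counts scaled to library size (CPM) of the 2 conditions did not overlap, as was so for 67.3% of tested genes (34.9% with hypoxia higher and 32.4% with it lower). In a fit blocked on replicate number, the 4 increases and 6 decreases were called again, against 71.8% of all genes (36.6% higher and 35.2% lower). Of the 10, 5 also passed an absolute log2-fold change of 1, CDK6, CDKN1A and CDKN1C upward (15.2% of all genes) and CCND3 and CCNE1 downward (4.91%), which makes 20.1% of all genes in both directions. A change of RNA per cell and a change in the share of cells in each phase cannot be told apart in such bulk libraries, and CPM are relative to the rest of the RNA in a library.

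**Figure D1:**
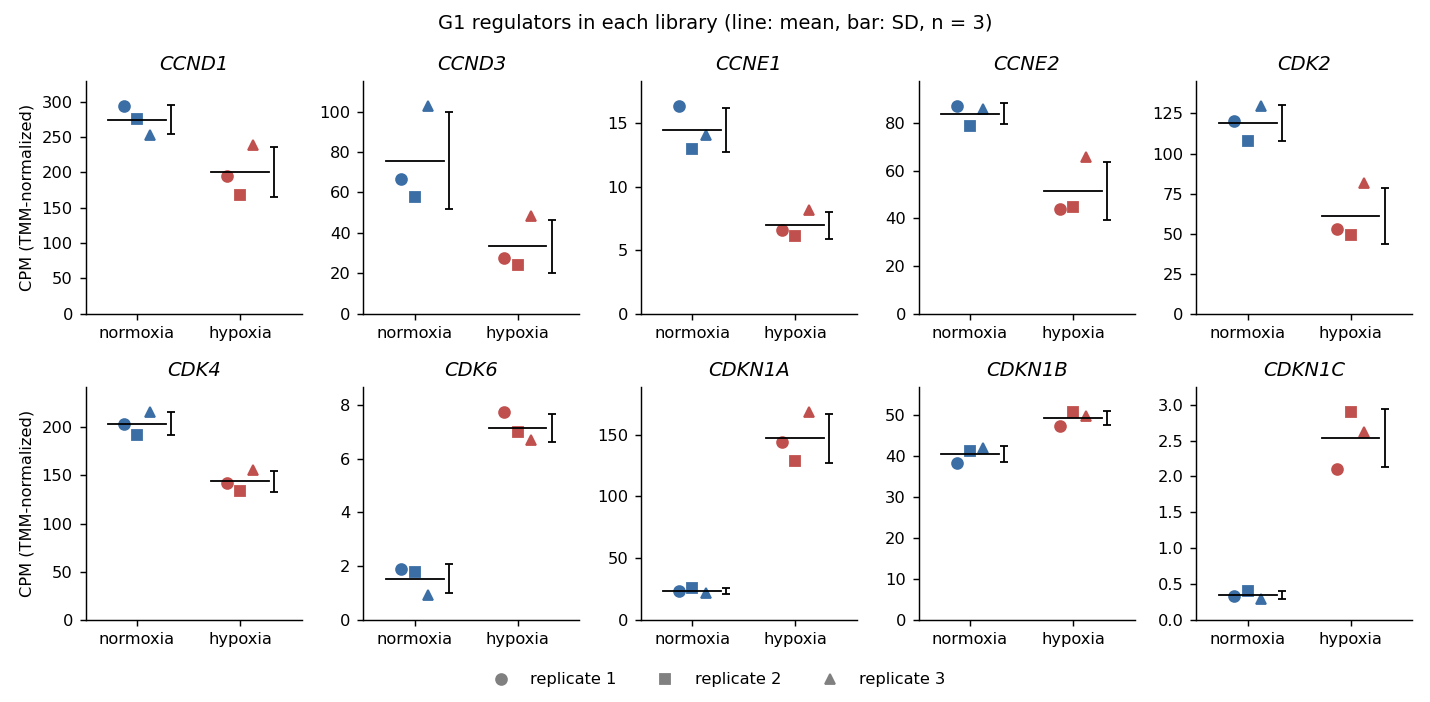
TMM-normalized CPM of each G1 regulator (vertical axes, each from 0) in the 3 normoxia (blue) and 3 hypoxia (red) libraries, with the mean as a line and the SD as a bar. CCND1 comes closest to overlap, with hypoxia replicate 3 at 239 CPM and normoxia replicate 3 at 253 CPM.

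The libraries held from 32989104 to 89883409 counts, the most in hypoxia replicate 3, where 3 counts correspond to 0.0334 CPM (0.0909 CPM in the shallowest library). Such a floor covers counting error only. The 10 luminal markers checked summed to 15612 to 19558 CPM in normoxia and 11200 to 14263 CPM in hypoxia, with 5 of them called lower and 0 higher (7 and 1 with the replicate block). The sums were at most 4.29 CPM for 5 leukocyte markers, and for known hypoxia targets (10 genes, VEGFA and CA9 among them) 889 to 1007 CPM in normoxia and 4323 to 4558 CPM in hypoxia. Those of 6 fibroblast genes came to 77.4 to 99.7 CPM over both conditions, nearly all of it from COL1A1 alone (76.9 to 99.1 CPM). The 13 mesenchymal or basal markers summed to 46.9 to 50.5 CPM in normoxia and 110.4 to 118 CPM in hypoxia. Most of this came from FN1 alone, at 27.8 to 46.8 CPM in normoxia and 78.0 to 102 CPM in hypoxia. Of the 13, 7 had enough counts to be tested, with 3 called higher and 0 lower (4 and 0 with the replicate block). Replicate 3 of both conditions stood apart, with VIM (vimentin, of mesenchymal cells) at 12.8 CPM in the control and 10.95 CPM in the hypoxia library, against at most 0.957 CPM in the other libraries. Without both of these libraries, all 10 regulators were still called in the same direction. In that setting 5751 of 15803 tested genes were called higher and 5506 lower. With all libraries, 4765 and 4551 of 15657 were.

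The D-type cyclins were affected unequally. CCND1, which encodes cyclin D1 (chromosome 11, 69455873 to 69469242, forward strand, GRCh37), was at 294, 276 and 253 CPM in normoxia replicates 1, 2 and 3, and at 195, 168 and 239 CPM in hypoxia replicates 1, 2 and 3. The third hypoxia library was thus near the lowest control, and the groups were separate only narrowly. The log2-fold change was -0.45 (standard error 0.13, adjusted p = 0.0176). In fits that did not block on the replicate number, this was the least stable of the decreases (adjusted p = 0.00540 when blocked). It was no longer called with upper-quartile scaling (-0.30, adjusted p = 0.0710), without normoxia replicate 1 (-0.41, adjusted p = 0.0533), without hypoxia replicate 1 (-0.43, adjusted p = 0.0606) or without hypoxia replicate 2 (-0.34, adjusted p = 0.0502), nor without both libraries numbered 1 (adjusted p = 0.164) or numbered 2 (adjusted p = 0.104).

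CCND3, encoding cyclin D3 (chromosome 6, 41902671 to 42016632, reverse strand), had 66.6, 57.8 and 102.8 CPM in the normoxia replicates and 27.5, 24.2 and 48.2 CPM in the hypoxia replicates. Replicate 3 was the highest library of both conditions, and every hypoxia library was below every control. The log2-fold change was -1.18 (standard error 0.30, adjusted p = 0.0103). Blocking on the replicate number gave a standard error of 0.063 and an adjusted p of 3.01e-06, whereas without both libraries numbered 1 the adjusted p was 0.0555 (log2-fold change -1.14). CCND2, the remaining D-type cyclin, reached no more than 7 counts per library and was not tested.

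The 2 D-type cyclins, compared per length in RPKM (CPM per kilobase of counted exon), had a summed level of 87.9 ± 4.71 RPKM (SD, n = 3) in normoxia and 57.3 ± 12.3 RPKM in hypoxia. CCND1 made up 72.9 ± 7.36% of that sum in normoxia and 82.0 ± 3.06% in hypoxia. The log2 ratio of CCND1 to CCND3, which does not depend on the scaling of the library, was 0.74 higher in hypoxia. The conditions were separate only narrowly, with normoxia replicate 2 at 1.815 and hypoxia replicate 3 at 1.866. With any 1 library left out, the difference ranged from 0.44 to 0.92.

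Both E-type cyclins, which activate CDK2 at the end of G1, also fell. CCNE1 (cyclin E1; chromosome 19, 30302901 to 30315224, forward strand) went from 16.4, 13.006 and 14.1 CPM in the normoxia replicates to 6.57, 6.12 and 8.18 CPM in the hypoxia replicates. The highest hypoxia library lay well under the lowest control. Its log2-fold change was -1.05 (standard error 0.15, adjusted p = 8.54e-04). CCNE2 (cyclin E2) started from 87.1, 78.9 and 85.8 CPM in the controls and reached 44.1, 44.8 and 65.7 CPM under hypoxia, where replicate 3 stood above the other two. Its log2-fold change was -0.70 (standard error 0.16, adjusted p = 0.00585), and it was not called without both libraries numbered 1 (-0.57, adjusted p = 0.0695). Of its 2726 counted exon bases, 269 are shared with INTS8 on the opposite strand, so part of its count is uncertain. CCNE2 was the main E-type transcript per length, with 80.7 ± 1.22% of their sum in normoxia and 84.0 ± 1.21% in hypoxia.

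Among the kinases, CDK2, the partner of cyclins E and A (chromosome 12, 56360553 to 56366573, forward strand), was at 120.2, 108 and 129.7 CPM in the normoxia replicates and at 52.6, 49.1 and 81.4 CPM in the hypoxia replicates. All hypoxia libraries were below all controls, replicate 3 again being the highest of both groups. On the log2 scale the change was -0.96 (standard error 0.19, adjusted p = 0.00323). CDK4, the partner of D-type cyclins (chromosome 12, 58141510 to 58146230, reverse strand), went from 203, 192 and 216 CPM to 142, 134 and 156 CPM. The spread within each condition was small, and the change of -0.50 on the log2 scale (standard error 0.085, adjusted p = 0.00170) held under every alternative run. TSPAN31, on the opposite strand, shares 517 of the 2002 counted bases of CDK4. Its own log2-fold change was 0.13 (adjusted p = 0.355). The strand setting of the counting is not given in the sources used here.

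Promoter sequence was looked at for motifs of factors known to act on these genes, in RefSeq windows from 250 bases before to 50 bases after a transcript start. Windows were found for CCND3, CCNE1, CDK4, CDK6, CDKN1A and CDKN1B (9 windows, all located in GRCh37 by exact match), and were not found in that table for CCND1, CCNE2, CDK2 and CDKN1C. The E-box CACGTG, a palindrome bound by MYC-MAX and related factors, was in 7.26% of all 35116 windows. The CDK4 window held 3, shown here because CDK4 is a known MYC target, with the E-box in capitals and the strand of the gene read 5′ to 3′. They lie at chr12:58146294-58146319, chr12:58146274-58146299 and chr12:58146179-58146204, and the last is inside a counted exon of CDK4.
CDK4 E-box from base -216: gtcaagcggtCACGTGtgatagcaac
CDK4 E-box from base -196: agcaacagatCACGTGgctgccatcg
CDK4 E-box from base -101: gggtggcggtCACGTGcccagaacgt

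MYC itself averaged 63.7 ± 10.3 CPM in the controls and 79.1 ± 8.72 CPM under hypoxia, with overlapping libraries (log2-fold change 0.31, adjusted p = 0.0731, and 0.0427 with the replicate block). MXI1, a MAX partner that opposes MYC at E-boxes, rose from 26.5 ± 2.64 to 119 ± 7.22 CPM (log2-fold change 2.17, adjusted p = 2.03e-05).

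CDK6, the other kinase of D-type cyclins (chromosome 7, 92234235 to 92465941, reverse strand), moved the opposite way. It was at 1.90, 1.77 and 0.937 CPM in the normoxia replicates (75, 66 and 29 counts) and at 7.73, 6.998 and 6.71 CPM in the hypoxia replicates (313, 256 and 613 counts). The conditions were far apart, and the lowest control was replicate 3, in which VIM was high. On the log2 scale CDK6 was higher by 2.20 (standard error 0.25, adjusted p = 3.12e-04), and by 2.01 (adjusted p = 1.01e-07) without both libraries numbered 3. CDK6 remained a minor transcript all the same. Per length it made up 0.0864 ± 0.0328% of the sum of CDK2, CDK4 and CDK6 in normoxia and 0.622 ± 0.105% in hypoxia, while that sum went from 154 ± 10.8 to 99.1 ± 12.98 RPKM. The log2 ratio of CDK4 to CDK6 dropped by 2.78, from 9.67 ± 0.63 to 6.89 ± 0.18. LOC101927497, on the opposite strand, shares 81 of the 11762 counted bases of CDK6.

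The core of the hypoxia response element, searched as ACGTG or GCGTG on both strands, is the short sequence bound by HIF factors. It was in 48.4% of all windows and is contained in the E-box CACGTG, so the 3 E-boxes of CDK4 count as 6 matches. Matches were therefore found in windows of genes that rose and of genes that fell. Those in front of a transcript start are shown for the genes that rose, with the core or its reverse complement in capitals and the strand of the gene read 5′ to 3′. The CDK6 and CDKN1A sites lie within the annotated span of their gene, ahead of a start inside it, and the CDKN1A site is also in a counted exon of the antisense gene DINOL.
CDK6, chr7:92463409-92463433: cgtctccctgCACGTccgggcctca
CDK6, chr7:92463331-92463355: cgtgacattgACGTGcccggcgcct
CDK6, chr7:92463277-92463301: ggctgctcggCACGCcccctcccgt
CDKN1A, chr6:36646286-36646310: cctcctgcagCACGCgaggttccgg
CDKN1B, chr12:12870107-12870131: ctccagcagtCACGCgaccagccaa

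A CCND3 window held 1 core as well, inside a counted exon, and the other CDK6 window held an E-box at base 30 after the start. The CCNE1 window held no core. The E2F motif, searched as TTTCCCGC, TTTCGCGC, TTTGCCGC or TTTGGCGC on both strands, was in 3.31% of all windows and in none of those of the 6 genes. A match is a description of the letters and not a bound site.

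CDKN1A, encoding p21 (chromosome 6, 36644237 to 36655116, forward strand), had the smallest adjusted p of the 10 genes. It was at 23.1, 25.8 and 21.5 CPM in the normoxia replicates and at 144, 129 and 168 CPM in the hypoxia replicates. The lowest hypoxia library was far above the highest control, with 4703 to 15381 counts per hypoxia library. The log2-fold change was 2.65 (standard error 0.12, adjusted p = 2.06e-05), and ranged from 2.49 to 2.80 over the alternatives. The antisense gene DINOL shares 238 of 2637 counted bases and did not exceed 6 counts.

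CDKN1B, encoding p27 (chromosome 12, 12870204 to 12875316, forward strand), rose far less. Its controls were at 38.4, 41.3 and 42.1 CPM and its hypoxia libraries at 47.3, 50.7 and 49.7 CPM, so the groups were separate but close. Its log2-fold change was 0.28 (standard error 0.078, adjusted p = 0.0157). It missed the threshold without normoxia replicate 1 (0.23, adjusted p = 0.0946), without hypoxia replicate 2 (0.25, adjusted p = 0.0602), and without both libraries numbered 1 (adjusted p = 0.178) or numbered 2 (adjusted p = 0.121). Much of the control of p27 is known to act on the protein, which these libraries do not measure.

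CDKN1C, an imprinted gene encoding p57 (chromosome 11, 2904448 to 2906995, reverse strand), had the largest fold of the 10 on the fewest reads. The controls held 13, 15 and 9 counts (0.329, 0.403 and 0.291 CPM) and the hypoxia libraries 85, 106 and 240 counts (2.10, 2.90 and 2.63 CPM). No hypoxia library came near the controls. The log2-fold change was 2.88 (standard error 0.26, adjusted p = 1.24e-04).

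**Figure D2:**
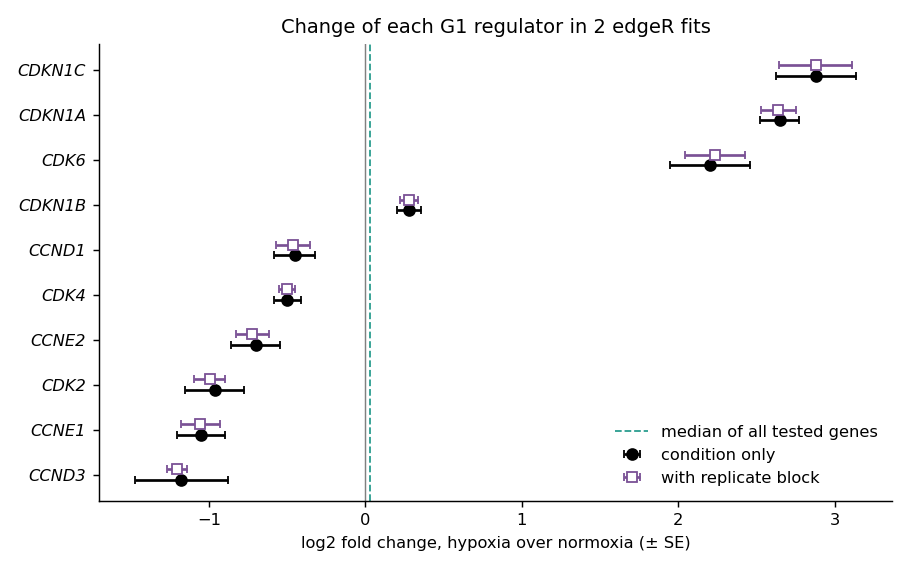
Log2-fold change (hypoxia over normoxia, horizontal axis) of each G1 regulator with its standard error, from edgeR with condition only (filled circles) and with the replicate number as a block (open squares). The block moved no estimate across 0 and shortened the error of CCND3 most, from 0.30 to 0.063.

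Together the CIP/KIP transcripts went from 25.2 ± 1.13 to 76.6 ± 7.48 RPKM, and their make-up was turned around. CDKN1B held 64.0 ± 2.46% of the class in normoxia and 25.7 ± 2.71% in hypoxia. CDKN1A held 35.3 ± 2.37% in normoxia and 72.6 ± 3.02% in hypoxia. CDKN1C was the smallest part, at 0.701 ± 0.0946% in normoxia and 1.73 ± 0.355% in hypoxia, with no overlap. In hypoxia the summed CIP/KIP level was therefore above that of the D-type cyclins in each library, whereas in every control it was below.

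**Figure D3:**
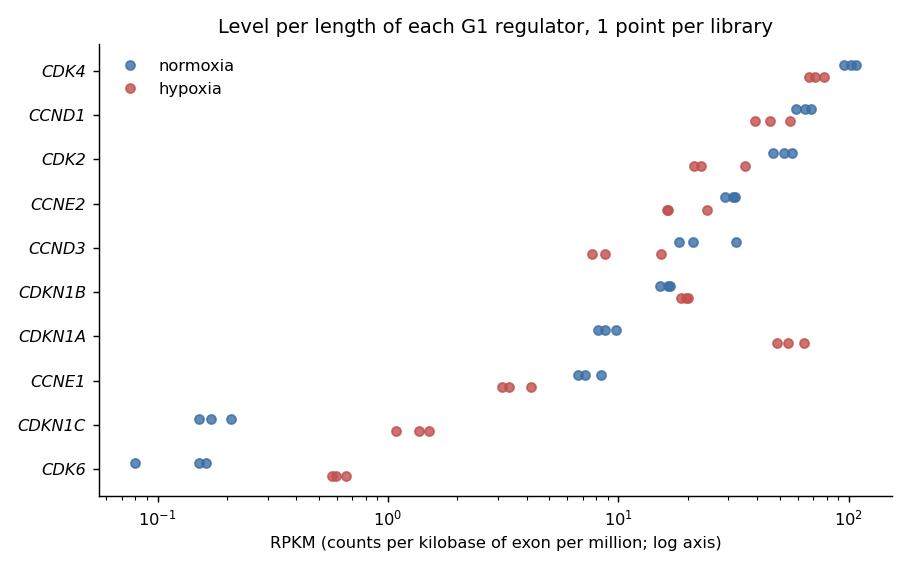
Level per length of each G1 regulator in RPKM on a log axis, with 1 point per library, normoxia in blue and hypoxia in red. CDKN1A moved from 8.15 to 9.77 RPKM in the controls to 48.8 to 63.8 RPKM in hypoxia, next to CCND1, while CDK4 stayed highest in both conditions.

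The order of the levels per length in normoxia was CDK4 (101.7 ± 6.04 RPKM), CCND1 (64.0 ± 4.76), CDK2 (51.8 ± 4.83), CCNE2 (30.8 ± 1.63), CCND3 (24.0 ± 7.54), CDKN1B (16.1 ± 0.778), CDKN1A (8.89 ± 0.821), CCNE1 (7.40 ± 0.879), CDKN1C (0.177 ± 0.0296) and CDK6 (0.131 ± 0.0445). Libraries of neighbours overlapped for CCNE2 and CCND3, for CDKN1A and CCNE1, and for CDKN1C and CDK6. In hypoxia, CDK4 (71.95 ± 5.42 RPKM) was followed by CDKN1A (55.7 ± 7.59), CCND1 (46.7 ± 8.30), CDK2 (26.5 ± 7.70), CDKN1B (19.5 ± 0.692), CCNE2 (18.9 ± 4.51), CCND3 (10.6 ± 4.12), CCNE1 (3.56 ± 0.554), CDKN1C (1.32 ± 0.21) and CDK6 (0.608 ± 0.0449). Here CDKN1A overlapped with CCND1, and CDKN1B with CCNE2. CDKN1A thus moved from rank 7 to rank 2. These lengths are the union of all counted exons (11762 bases for CDK6), so a gene that uses few of its exons is placed too low.

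Within hypoxia, replicate 3 had the highest level of 7 of the 10 genes, including all that fell and CDKN1A. VIM and the depth were also highest there among the hypoxia libraries, and their part in this was not tested. Without that library and its control of the same number, the decreases were larger for CCND1 (-0.65), CCND3 (-1.26), CCNE1 (-1.21), CCNE2 (-0.90), CDK2 (-1.16) and CDK4 (-0.51), all on the log2 scale.

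Ratios within a library gave the balance between members without any scaling between libraries. For the 7 ratios tested, the conditions did not overlap. Each reached p = 0.10 in a two-sided exact permutation test that left the replicate numbers unpaired (adjusted p = 0.10 over the 7 ratios). That is the smallest p that 3 against 3 unpaired libraries allow, and an exact test of 3 pairs cannot reach it. The log2 ratio of CCND1 to CDKN1B went from 1.99 ± 0.17 to 1.25 ± 0.27, and that of CCNE1 to CDKN1B from -1.13 ± 0.23 to -2.47 ± 0.22. CDKN1A was below CDKN1B in normoxia (-0.86 ± 0.15) and above it in hypoxia (1.51 ± 0.21). CDKN1C rose relative to CDKN1B by 2.62. CCNE1 and CCNE2 were the pair that moved most nearly together, with a ratio that differed by -0.33 between the conditions.

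**Figure D4:**
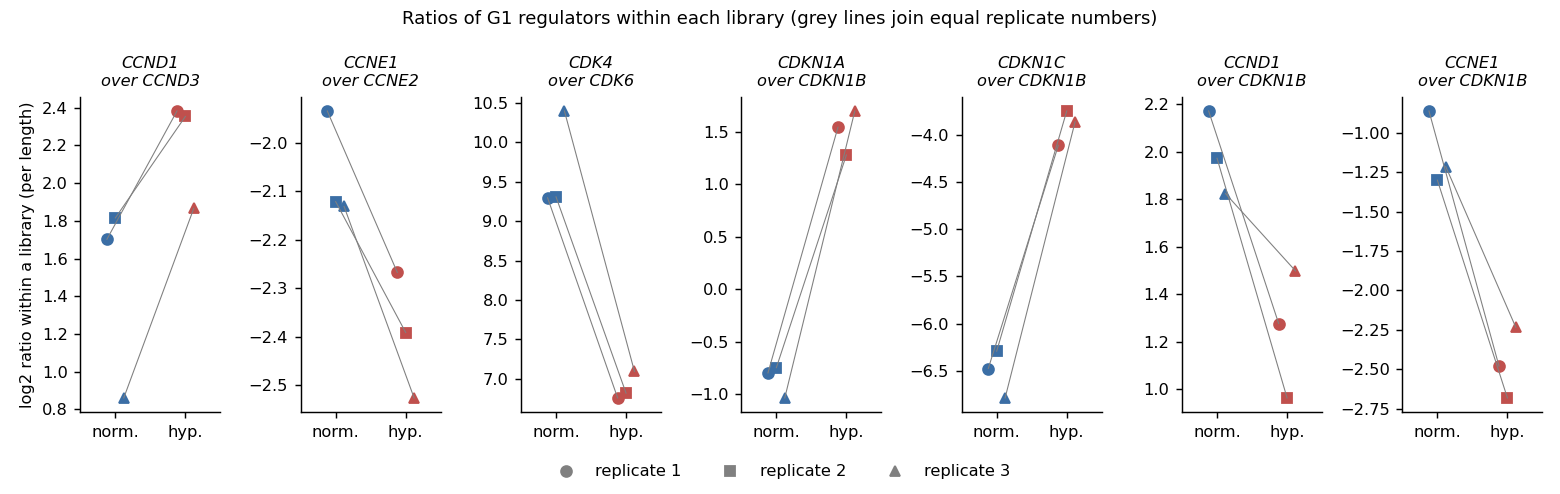
Log2 ratio of pairs of G1 regulators within each library, per length, with normoxia in blue, hypoxia in red and grey lines between libraries of equal replicate number; the vertical axes differ and do not start at 0. CDK4 over CDK6 changed most, from a mean of 9.67 to 6.89.

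Other genes of the pathway were read from lists by role, given by their counts beside the median log2-fold change of 0.028 over all tested genes, of which 59.5% were called (30.4% higher and 29.1% lower). Of 13 pocket proteins and E2F factors, 9 fell and 0 rose (1 rose with the replicate block; 6 fell and 2 rose with upper-quartile scaling), with a median of -0.41. RB1, the pocket protein that the G1 kinases phosphorylate, fell from 94.6 ± 3.35 to 75.5 ± 2.43 CPM (log2-fold change -0.32, adjusted p = 0.00557). E2F1 and E2F2, which activate S-phase genes, fell, with log2-fold changes of -1.53 and -1.58.

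Downstream, 19 of 21 E2F targets of S-phase entry fell and 0 rose (21 fell with the block), with a median of -1.12. MCM5 and MCM6, subunits of the replicative helicase, fell, with log2-fold changes of -1.67 and -1.57. CDC25A, the phosphatase that removes the inhibitory phosphate from CDK2, fell from 54.5 ± 13.03 to 16.3 ± 3.96 CPM (log2-fold change -1.73, adjusted p = 4.61e-04). Of 16 genes of G2 and mitosis, 15 fell and 0 rose (16 fell with the block), with a median of -0.87, among them AURKA (-1.35), CCNB1 (-1.33), FOXM1 (-1.21) and MKI67 (-0.56). CCNB1, CCNB2 and CDK1 of this list, and CCNA2 of the E2F targets, are also counted among the other cyclins and kinases. The median decrease of these S-phase and mitotic lists was larger than the decreases of CCND1, CCNE2 and CDK4. By contrast, CCND3 (-1.18) fell more than both medians, and CCNE1 (-1.05) and CDK2 (-0.96) fell more than the mitotic one. These differences were not tested.

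**Figure D5:**
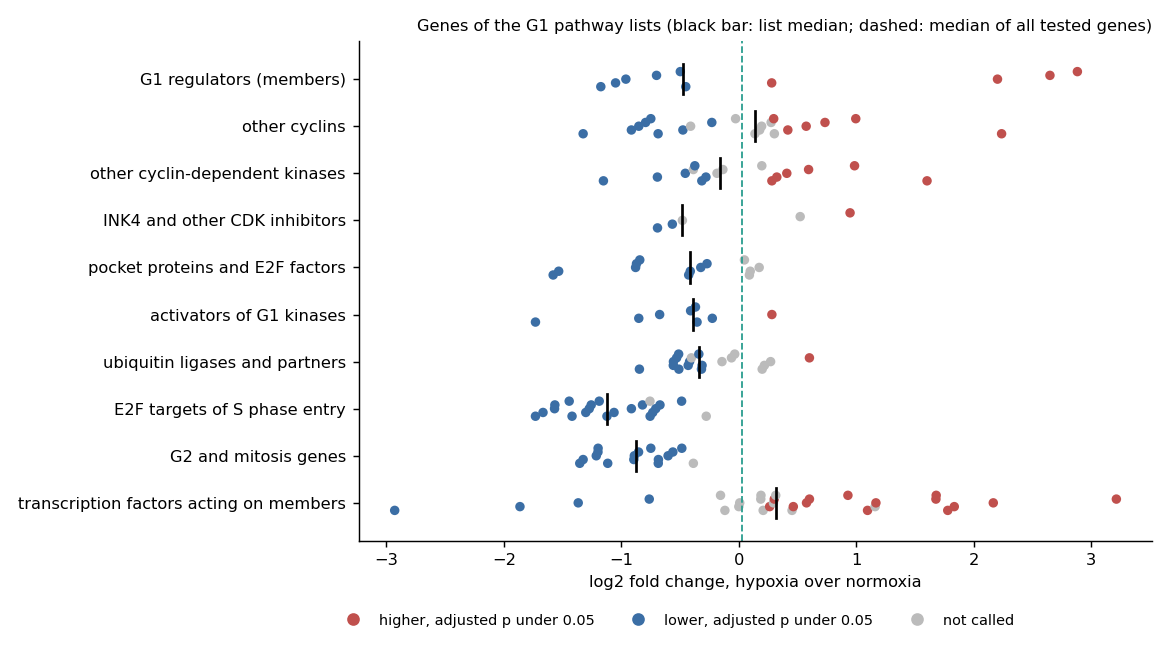
Log2-fold change (hypoxia over normoxia) of each tested gene in the member set and in the pathway lists, red where higher, blue where lower and grey where not called, with the list median as a black bar and the median of all tested genes (0.028) as a dashed line. The S-phase and mitotic lists hold no gene called higher, and 19 of 21 E2F targets were called lower.

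Of 8 genes that activate the G1 kinases, 7 fell and 1 rose, with a median of -0.39. Among them, CDC25A is also counted in the E2F targets, and CDK7, which rose, and CCNH in the other kinases and cyclins. The decreases numbered 3 with upper-quartile scaling, which raised the median of all genes by 0.157, and 4 without hypoxia replicate 1. The increase was lost when any 1 library other than hypoxia replicate 3 was left out. Of 19 ubiquitin ligases and partners that turn over G1 cyclins and CIP/KIP proteins, 11 fell and 1 rose (12 and 4 with the block; 7 and 3 with upper-quartile scaling). SKP2 and CKS1B, which together mark p27 for degradation, fell, with log2-fold changes of -0.53 and -0.42 (adjusted p = 0.00141 and 0.0228). MDM2, a ubiquitin ligase outside this list, differed by 0.26 on the log2 scale with overlapping libraries (adjusted p = 0.110, when blocked 0.00201). Leaving out both libraries numbered 1 lowered the number of decreases to 5 pocket proteins and E2F factors, 2 activators and 3 ubiquitin ligases and partners. Calls were lost over all genes too. Those called lower numbered 2191 of 15713 in that setting and 3561 of 15808 without hypoxia replicate 1, against 4551 of 15657 with all libraries.

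Of 5 INK4 and related inhibitors, 1 rose and 2 fell (2 and 3 with the block, 2 and 1 with upper-quartile scaling), a share near that of all genes. Without hypoxia replicate 1, and without both libraries numbered 1 or numbered 2, 0 fell, and without normoxia replicate 1 or hypoxia replicate 2, 1 fell. In these settings 2191 to 3821 of all tested genes were called lower, against 4551 with all libraries. CDKN2B, the gene that rose, went from 5.49 ± 0.821 to 10.6 ± 0.534 CPM (log2-fold change 0.95, adjusted p = 0.00101). CDKN2C, encoding the CDK4 and CDK6 inhibitor p18, fell from 37.0 ± 1.44 to 24.9 ± 6.68 CPM (log2-fold change -0.57, adjusted p = 0.0220). For CDKN2D the value was -0.48, which missed the threshold (adjusted p = 0.0519) and passed it when blocked (0.00615).

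Cyclins and kinases outside the G1 set were called in both directions, in shares not far from those of all genes. Of 21 tested cyclins, 6 rose and 8 fell (9 and 8 with the block), with a median of 0.14. CCNG2, an atypical cyclin linked to cell cycle arrest, rose from 31.8 ± 4.18 to 149.9 ± 6.27 CPM (log2-fold change 2.24, adjusted p = 2.31e-05). Of 16 tested kinases, 6 rose and 6 fell (7 and 8 with the block, 7 and 3 with upper-quartile scaling). Without both libraries numbered 1, 4 cyclins rose and 4 fell, and 2 kinases rose and 2 fell. Over all genes, 2648 of 15713 were called higher and 2191 lower in that setting. CDK19, a Mediator kinase, rose 3.03-fold, and CDK5, mainly known from neurons, fell by 1.15 on the log2 scale.

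Of 29 transcription factors known to act on the 10 genes, 14 rose and 4 fell (18 and 5 with the block), with a median of 0.31. ESR1, the estrogen receptor that acts on CCND1, fell from 271 ± 26.4 to 74.6 ± 0.598 CPM (log2-fold change -1.86, adjusted p = 2.06e-05). PGR (-2.93) and HIF1A (-1.37) also fell. FOS (3.21, on 2.64 ± 2.82 CPM in normoxia), MXI1 (2.17) and KLF4 (1.83), which acts on CDKN1A, rose.

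Over the 6 libraries, the genes of at least 100 mean counts with a pattern of log2 CPM most like that of CCND1 were ZDHHC5, ORAI2 and SP2 (Pearson r of 0.993, 0.990 and 0.989). For CDKN1C, with the largest rise, they were RNF144A, PCDH1 and LOC100507487 (r of 0.9994, 0.9993 and 0.9991), and for CCND3, with the largest decrease, NAGLU, SLC25A39 and H1FX (r of 0.9999, 0.9996 and 0.9995). Such likeness is common with 6 points in 2 groups, since 169, 1525 and 1571 of 12656 genes had an r over 0.95 with CCND1, CDKN1C and CCND3.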

How the data were processed

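Per the labels and the study's methods, RNA of T47D cells was made into stranded mRNA libraries, reads were trimmed with Skewer, aligned to GRCh37/hg19 with STAR 2.5.2a and counted per RefSeq gene with featureCounts 1.5.1 (versions from the submitters' processing notes). The authors deposited raw counts with no normalization, 1 file per library, with the exon length of each gene. How strand and multi-mapping reads were handled in counting is not given in the sources used here. Counts were analysed with R 4.3.3 and edgeR 4.0.16: filterByExpr (minimum count 10, minimum total 15), TMM factors, a quasi-likelihood test of condition without covariates, with p-values adjusted by Benjamini-Hochberg over 15657 genes. A standard error is the absolute log2-fold change over the square root of the F statistic. CPM and RPKM used TMM-scaled library sizes. Ratios were tested with an exact permutation test (scipy 1.17.1). The quasi-likelihood and ratio tests were tested on simulated data.

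Alternatives were DESeq2 1.42.0, edgeR's exact test (named in the study's methods), other scalings, no filter, a replicate block and libraries left out. Same-numbered libraries deviated together from their condition means (correlations across genes of 0.338, 0.422 and 0.575 for replicates 1, 2 and 3), and the study's methods call the samples paired. Only the fit with the replicate block took the numbers as pairs. Its values are given beside results whose call or count they changed. The main fit and the fits with libraries left out were not blocked. The 10 genes and the lists were chosen with earlier results of these data known. Named were all 10 genes, in each list reported up to 3 genes each way past a log2-fold change of 1 and a mean of 100 counts, a fixed set of regulators (CCND2, CDKN2C, CDKN2D, RB1, E2F1, SKP2, CKS1B, CDC25A, MKI67, MDM2, ESR1, MYC and CCNG2), and the 3 genes most correlated with CCND1 and with the members of largest change. CDKN2B was named as well, as the gene called higher in its list. Promoter windows are RefSeq sequences (GRCh38.p14), placed in GRCh37 by exact match. Of the gene lists, 1 is not reported here.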

Additional observations from a re-analysis of the deposited data

How the results depend on the processing

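All 10 genes kept their direction under the 15 alternatives run across all genes, and 6 of them (CCNE1, CDK2, CDK4, CDK6, CDKN1A and CDKN1C) passed the threshold in each. The shares of all tested genes that did so were not computed. The replicate block kept 4 members higher and 6 lower and changed the call of no member, while the counts over all tested genes became 5733 higher and 5511 lower (4765 and 4551 without it). With libraries left out, 3 to 4 members were higher and 3 to 6 lower, and 2648 to 5751 of all genes were higher and 2191 to 5506 lower. Without both libraries numbered 1, which left 2 libraries a condition, CCND1, CCND3, CCNE2 and CDKN1B were not called. A fold threshold of 1 on the absolute log2 scale left 2 members lower, CCND3 and CCNE1, and 2373 of all genes higher and 768 lower. With upper-quartile scaling the median over all genes shifted up by 0.157 (log2), and 64.5% of called genes were higher instead of the 51.1% with TMM. The 7 ratios kept their sign under all 8 alternatives each, CCND1 over CCND3 ranging from 0.44 to 0.92. With 9 counts in 1 control library, the fold of CDKN1C rests on the fewest reads.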
